A study of Mus musculus with 9 samples.

Results

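Gene expression of a rapamycin-resistant mouse cell line was compared with that of its rapamycin-sensitive parent line while both were in rapamycin. The members of the comparison were the arrays whose titles put them in the resistant or the sensitive rapamycin group, 6 of the 9 arrays of the series. The parent line is BC3H1, a mouse brain tumour line with muscle-like properties, grown in medium with 20% fetal bovine serum. The sensitive arrays were BC3H1 cells given 100 nM rapamycin for 24 h. The resistant arrays were a derivative named RR1, obtained from BC3H1 by 6 months in 1 uM rapamycin and held in 1 uM rapamycin without a break. The other 3 arrays were BC3H1 cells given the solvent DMSO for 24 h, and serve here as a reference level. Each group had 3 arrays. Line, dose and length of exposure all differ between the compared groups and cannot be told apart, and there was 1 resistant line. Nothing in the labels tells if arrays of 1 group were separate cultures. The p-values therefore cover only the spread among these arrays, and that spread may be technical. The comparison asks which transcripts differ when one line grows in the drug and the other is newly exposed to it.

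Rapamycin binds the small immunophilin FKBP12, and the pair docks on the kinase mTOR within mTOR complex 1. That complex couples nutrients and growth factors to protein synthesis, ribosome production, lipid synthesis and entry into the cell cycle, and it restrains autophagy and lysosome production. mTOR complex 2, which phosphorylates AKT and SGK1, is not blocked acutely by the drug but can be lost on long exposure.

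RNA was measured on Affymetrix Mouse 430 2.0 arrays, and a signal is the brightness of a probe set after the authors' scaling. Changes are resistant minus sensitive on the log2(signal + 16) scale, each with its standard error after the ± sign. A change of 1 is a doubling of the signal plus 16, and the ratio of dim signals themselves is larger. A gene was called, and is said to have risen or fallen, where its Benjamini-Hochberg adjusted p in a limma fit was under 0.05 over all 12715 genes tested. Precision is limited by the number of arrays. Correlations over genes were 0.976 to 0.980 among the sensitive rapamycin arrays, 0.987 among the resistant arrays, and 0.865 to 0.875 between them. Median signals were 38.5 to 44.3 on the sensitive and 33.5 to 35.0 on the resistant arrays. In the DMSO group, replicates 1, 2 and 3 had median signals of 37.2, 36.8 and 66.2. Signals under 16 made up 32.6%, 32.3% and 17.4% of their probe sets, and correlations within that group were 0.955 to 0.980. DMSO replicate 3 thus differed from replicates 1 and 2, and it enters every DMSO reference level and the error term of the fit. Leaving it out added a call for 2 of the 369 named genes. The log2 difference between the 3′ and 5′ control probe sets of Actb, a sign of RNA quality, was 0.19 ± 0.04 (SD, n = 3) in the sensitive and 0.33 ± 0.02 in the resistant cells. That of Gapdh was -0.36 ± 0.04 and -0.29 ± 0.04. Neither overlapped between the groups (two-sided exact permutation p = 0.1 for each, the smallest that 3 against 3 arrays allow), and the part of RNA quality in the results was not tested.

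Of the 12715 genes, 7186 (56.5%) were called, 3353 higher in the resistant line (26.4%) and 3833 lower (30.1%). At least 2-fold differences were called for 1313 genes higher (10.3%) and 1741 lower (13.7%). The falls reached further than the rises. Changes of at least 4 on the log2 scale numbered 4 higher and 62 lower, changes of at least 5 numbered 0 higher and 25 lower, and the extremes were 4.67 for Tgif2 and -7.16 for Xaf1. The median change over all genes was -0.08. Centring each array on its 75th percentile moved that median to 0.05, a shift of over 0.1, and moved the share of calls that were higher from 46.7% to 54.6%. Changes below are on the scale as deposited, against the median of -0.08. Where a group's arithmetic mean lay under the filter limit, a signal of 22.2, the pseudocount of 16 limits the change. Among genes named below this holds for the sensitive cells in Brip1, Cav3, Fmod, Fst, Prph, Rragd, Tgif2, Tnnc2 and Trim54. It holds for the resistant line in Abcb1a, Actg2, Casp4, Ccl5, Cdh10, Chrna1, Cnn1, Col11a1, Cp, Etv4, Fzd8, Grb10, Ifi27l2a, Inhbb, Irgm2, Mndal, Mxd1, Oasl2, Pdgfra, Psmb8, Rnase4, Serpinb2, Sgce, Sod3, Spinkl, Tap1, Tap2, Trim30a, Trp53inp1 and Usp18.

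**Figure D1:**
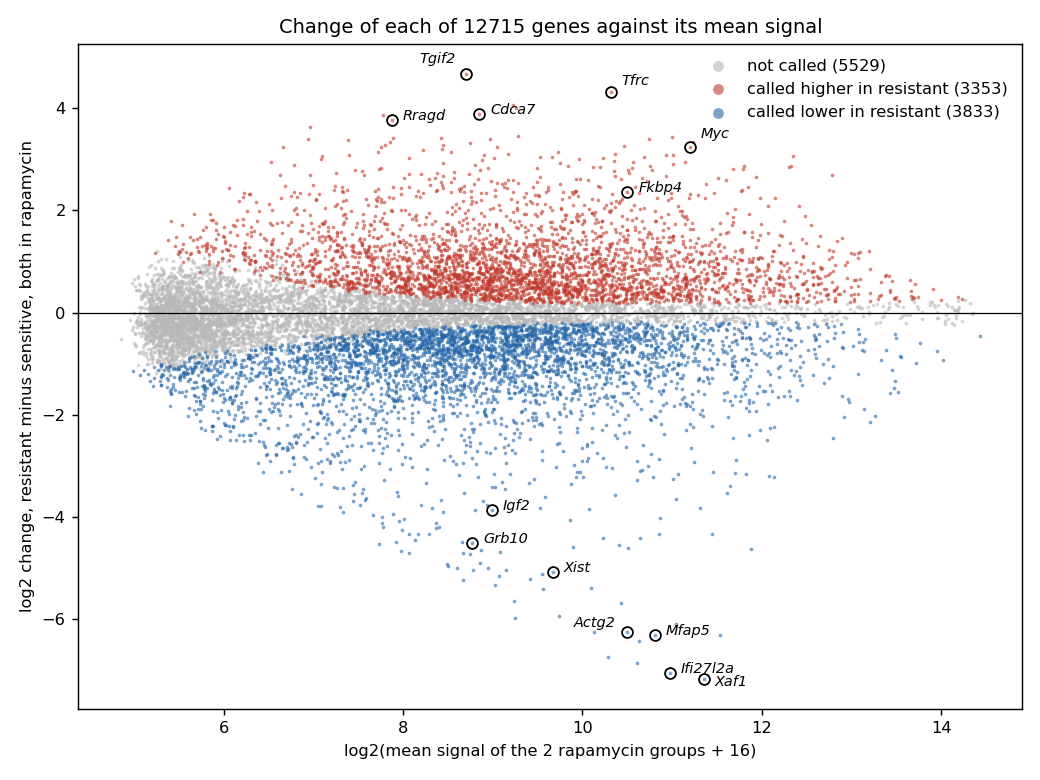
Change of each tested gene (resistant minus sensitive, both in rapamycin, log2 scale) against the log2 of its mean signal plus 16 in the 2 groups. Red points are the 3353 genes called higher, blue points the 3833 called lower and grey points the genes not called. The lower edge reaches -7.16 at Xaf1 and the upper edge 4.67 at Tgif2.

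The genes were read in 44 lists by role, with 1596 genes of which 1394 were tested. Over all tested genes 26.4% were called higher and 30.1% lower, the background for each count below. The lists with the highest medians were mitosis (2.19), DNA replication (2.18) and ribosome biogenesis (1.46), and those with the lowest were interferon-stimulated genes (-3.52), antigen presentation (-1.82) and collagen and matrix (-1.57). For 41 of the 44 lists the median kept its sign when arrays were centred on the 75th percentile or quantile normalized. The 3 others, the PI3K-AKT axis, redox genes and neuronal genes, had medians within 0.17 of 0 under each scaling.

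**Figure D2:**
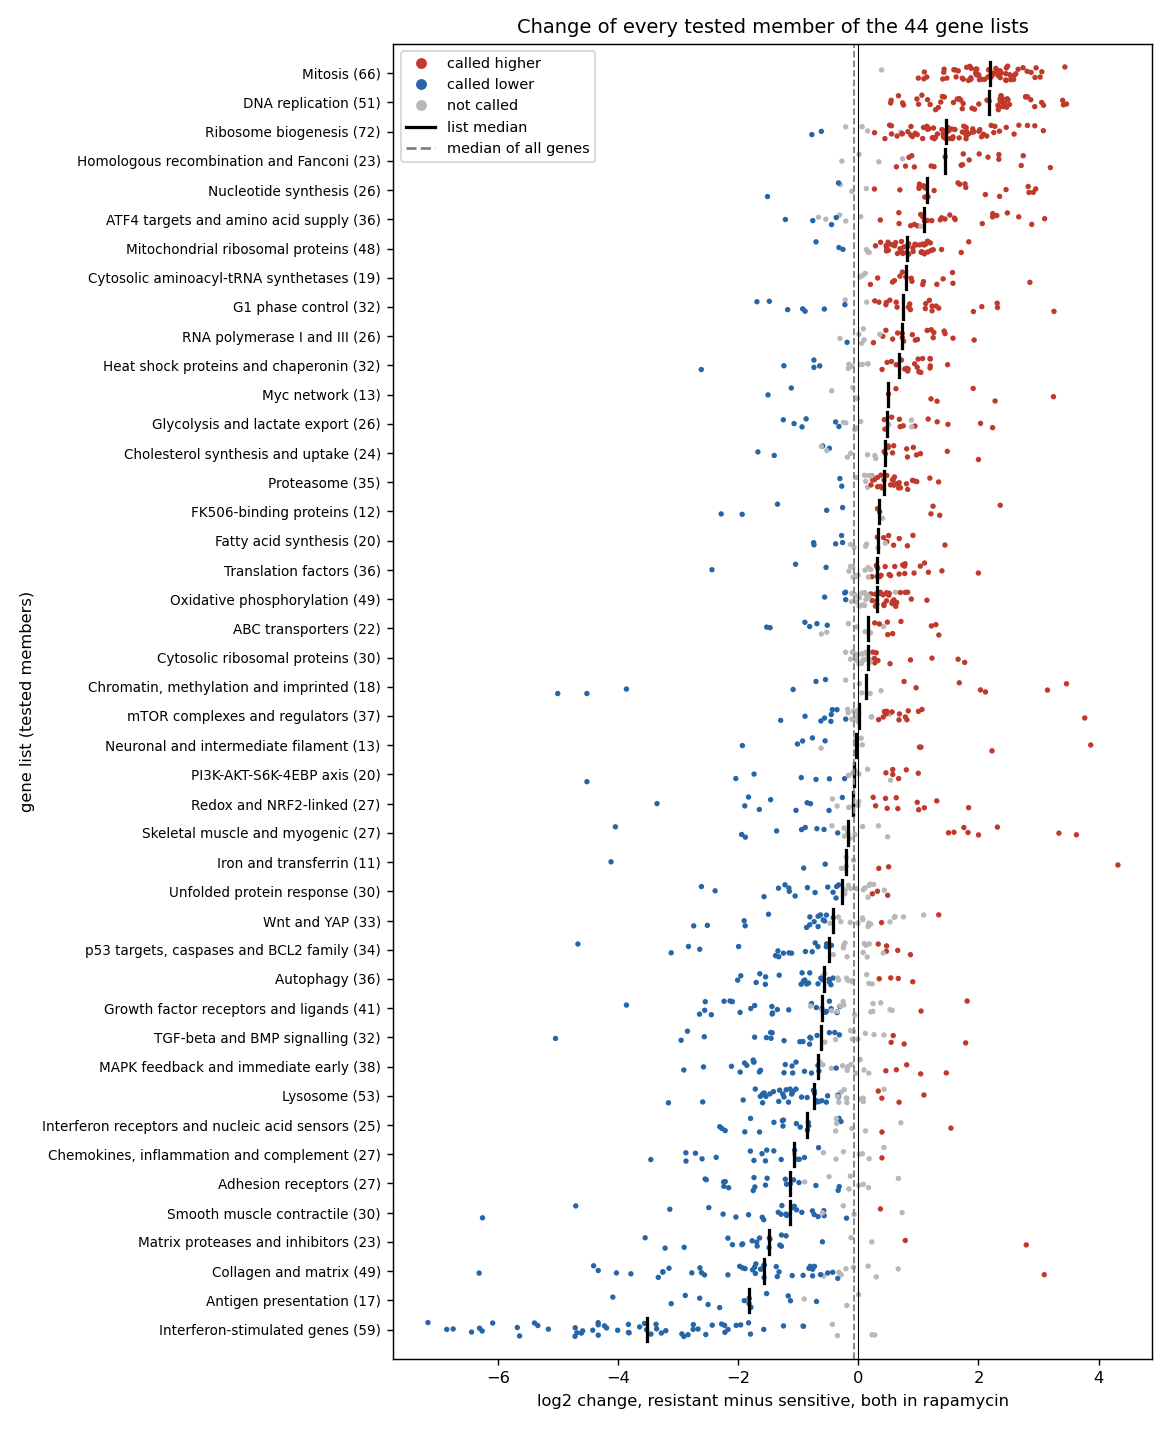
Change of every tested member of the 44 gene lists (log2 scale), lists ordered by their median, with the number of tested members in brackets. Points are genes coloured by call, black bars are list medians and the dashed line is the median of all genes, -0.08. Mitosis, at 2.19, lies at the top and interferon-stimulated genes, at -3.52, at the bottom.

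Myc had one of the larger rises. The gene encodes a transcription factor of growth and proliferation genes. Its signals were 419, 463 and 412 on the sensitive arrays and 4147, 4342 and 4193 on the resistant arrays (log2 change 3.25 ± 0.13, adjusted p = 7.48e-13). The DMSO arrays read 345, 325 and 207, and all resistant arrays lay far above both groups of sensitive cells. Pvt1, a long non-coding RNA gene next to Myc, read 152, 149 and 187 on the sensitive arrays and 828, 807 and 902 on the resistant arrays (change 2.28 ± 0.14, adjusted p = 1.57e-10), again without overlap. Neighbouring genes did not share one direction. Nsmce2 rose by 0.75 and Cyrib by 0.94, Trib1 was not called at 0.44, and Asap1 fell by 1.07. These 4 neighbours were picked after their values were seen.

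Of the 13 tested genes of the Myc network, 7 rose and 2 fell, with a median of 0.50. Max, the obligate partner of MYC, rose by 1.31 ± 0.36 from dim signals of 98.9, 60.9 and 47.2 to 177, 175 and 214. Mxi1, a MAX partner that opposes MYC, rose by 1.91 ± 0.16, as did the related Mxd3 (1.21 ± 0.23) and the MAX-binding Mga (0.63 ± 0.18). Mxd4, another antagonist, fell from 655, 790.0 and 756 to 248, 253 and 242 (change -1.503 ± 0.12), and Mxd1 changed by -1.12 ± 0.41 (adjusted p = 0.0278, with both groups dim). Zbtb17, which encodes the MYC partner MIZ1, rose by 0.50 ± 0.18 (adjusted p = 0.0273) and changed by -0.048 when its probe sets were averaged. Mnt, Mlx, Mlxip and Mycn were not called, at -0.04, -0.02, -0.09 and -0.44, and Mycl was below the filter. The call of Zbtb17 was also lost without the second sensitive array (adjusted p = 0.143) and without the second or the third resistant array (0.0966 and 0.0711). That of Mxd1 was lost without the second or the third sensitive or the first resistant array (0.112, 0.111 and 0.121), under quantile normalization (0.0685) and on averaging its probe sets, where it changed by -0.58 (0.223). The call of Mga was lost on averaging too (0.144).

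The machinery of DNA replication was higher in the resistant line throughout the list. All 51 tested genes of 52 listed rose (background 26.4%), with changes between 0.54 and 3.47 and a median of 2.18, and the arrays of the groups did not overlap for any of them (background 30.1%). Mcm3, a subunit of the replicative helicase, gave signals of 272, 273 and 298 on the sensitive arrays and 3085, 3096 and 3165 on the resistant arrays (change 3.40 ± 0.08, adjusted p = 7.65e-16). The sensitive arrays lay close together and far below the resistant arrays. Uhrf1, which carries DNA methylation across replication, read 121, 70.8 and 75.1 on the sensitive arrays and 1123, 1172 and 1063 on the resistant arrays (change 3.47 ± 0.15). Dscc1, part of an alternative clamp loader, rose by 3.41 ± 0.15, the clamp loader subunit Rfc5 by 3.05 ± 0.09, the helicase subunit Mcm5 by 3.08 ± 0.08 and the fork protection gene Timeless by 2.94 ± 0.28. Across its members the list had a median of -1.88 in sensitive cells in rapamycin against DMSO, where 51 of 51 fell (background 15.2%), and of 0.08 in resistant cells against DMSO, where 15 rose and 12 fell (backgrounds 25.9% and 25.8%). These 2 comparisons share their arrays with the one described here.

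A promoter motif was counted for several lists, on both strands of the 250 bases before to 50 after each gene's start in RefSeq (GRCm38.p6), which held 10219 of the 12715 tested genes. The E2F motif TTTCCCGC is recognised by the E2F factors that time S phase genes. It lay in 1.07% of all 32851 promoters of that table, in 2.30% of those of tested genes, in 4.91% of genes called at least 2-fold higher and in 1.21% of genes called at least 2-fold lower. In the replication list 7 of 38 promoters held it (18.4%), and their median change was 2.37 against 2.33 for those without. The windows below are shown because they belong to the replication genes with a match before the start and the largest changes, Cdc6, which loads the helicase, Mcm7 and Gins3, part of the GINS helicase complex. Capitals mark the match, read here as TTTCCCGC or its reverse complement GCGGGAAA, and no match overlapped another of the 6 motifs searched.
Cdc6 (chr11:98907977-98908056, plus strand): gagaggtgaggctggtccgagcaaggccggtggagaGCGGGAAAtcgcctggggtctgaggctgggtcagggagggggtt
Mcm7 (chr5:138172005-138172084, minus strand): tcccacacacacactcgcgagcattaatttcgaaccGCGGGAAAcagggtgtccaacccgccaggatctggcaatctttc
Gins3 (chr8:95633479-95633558, plus strand): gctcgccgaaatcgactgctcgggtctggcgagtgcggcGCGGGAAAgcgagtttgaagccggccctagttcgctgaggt
Their changes were 2.82 ± 0.19 for Cdc6, 2.37 ± 0.07 for Mcm7 and 0.54 ± 0.18 for Gins3, the smallest of the whole list. A match is a description of the sequence and shows neither binding nor a cause.

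Mitosis genes moved with replication genes. Of 66 tested, 65 rose, with a median of 2.19. Cenpa, the histone H3 variant of centromeres, had the largest rise. It read 287, 333 and 373 on the sensitive arrays and 3806, 3593 and 3781 on the resistant arrays (change 3.44 ± 0.09, adjusted p = 2.44e-15), with no overlap. The chromosomal passenger genes Incenp (3.06 ± 0.08) and Cdca8 (2.94 ± 0.07), the kinetochore gene Spc24 (3.03 ± 0.14), the spindle kinase Aurka (2.96 ± 0.07) and Ube2c (2.88 ± 0.10), the ubiquitin-conjugating enzyme of the anaphase-promoting complex, rose by similar amounts. Tacc3, which organises spindle microtubules, rose by 3.40 ± 0.14. The list's median was -2.07 in sensitive cells against DMSO and 0.01 in resistant cells against DMSO. The short CCAAT motif, found in 37.4% of all promoters, 43.1% of tested genes and 47.8% of genes at least 2-fold higher, lay in 39 of 54 mitosis promoters (72.2%), with a median change of 2.21 against 2.06 for those without.

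Homologous recombination and Fanconi genes also rose, 19 of 23 tested with a median of 1.45. The nuclease Exo1 rose by 3.20 ± 0.22 and the Bloom helicase Blm by 2.71 ± 0.16. Brip1, a helicase that binds BRCA1, read 18.6, 4.17 and 4.71 on the sensitive arrays and 90.6, 134 and 101 on the resistant arrays. Its sensitive arrays were near the floor and its change was 2.34 ± 0.30.

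Control of G1 phase was mixed. Of 32 tested genes 23 rose and 7 fell, with a median of 0.74. Skp2, the substrate receptor of the ubiquitin ligase that removes p27, read 253, 240.2 and 262 on the sensitive arrays and 2472, 2569 and 2583 on the resistant arrays (change 3.26 ± 0.08, adjusted p = 3.03e-15), with no overlap. The E-type cyclins Ccne1 and Ccne2 rose by 2.31 ± 0.09 and 2.32 ± 0.14, and the atypical E2F repressors E2f7 and E2f8 by 2.06 ± 0.10 and 1.92 ± 0.18. Cyclin D1 went the other way. Ccnd1 read 3422, 3309 and 3345 on the sensitive arrays and 1116, 1005 and 978 on the resistant arrays (change -1.69 ± 0.08, adjusted p = 1.18e-11), and the CDK4 inhibitor gene Cdkn2b fell from 849, 1163 and 1102 to 372, 328 and 377 (change -1.48 ± 0.11).

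Nucleotide synthesis rose in 21 of 26 tested genes and fell in 2, with a median of 1.14. Dut and Dctpp1, which clear dUTP and other unwanted dNTPs, rose by 2.91 ± 0.09 and 2.95 ± 0.08. Cad, the enzyme that starts pyrimidine synthesis, read 191, 169.8 and 123 on the sensitive arrays and 1412, 1223 and 1095 on the resistant arrays (change 2.84 ± 0.14). Its resistant signals also stood above the DMSO signals of 236, 236 and 284. Thymidine kinase Tk1 (2.83 ± 0.09), deoxycytidine kinase Dck (2.46 ± 0.13) and Ppat (2.35 ± 0.14), the committed enzyme of purine synthesis, rose too. Ctps2, a CTP synthase, fell from 899, 942 and 992 to 333, 346 and 285 (change -1.51 ± 0.09), and Prps2 fell by 0.33 (adjusted p = 0.00602), a call lost under centring and on averaging its probe sets.

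**Figure D3:**
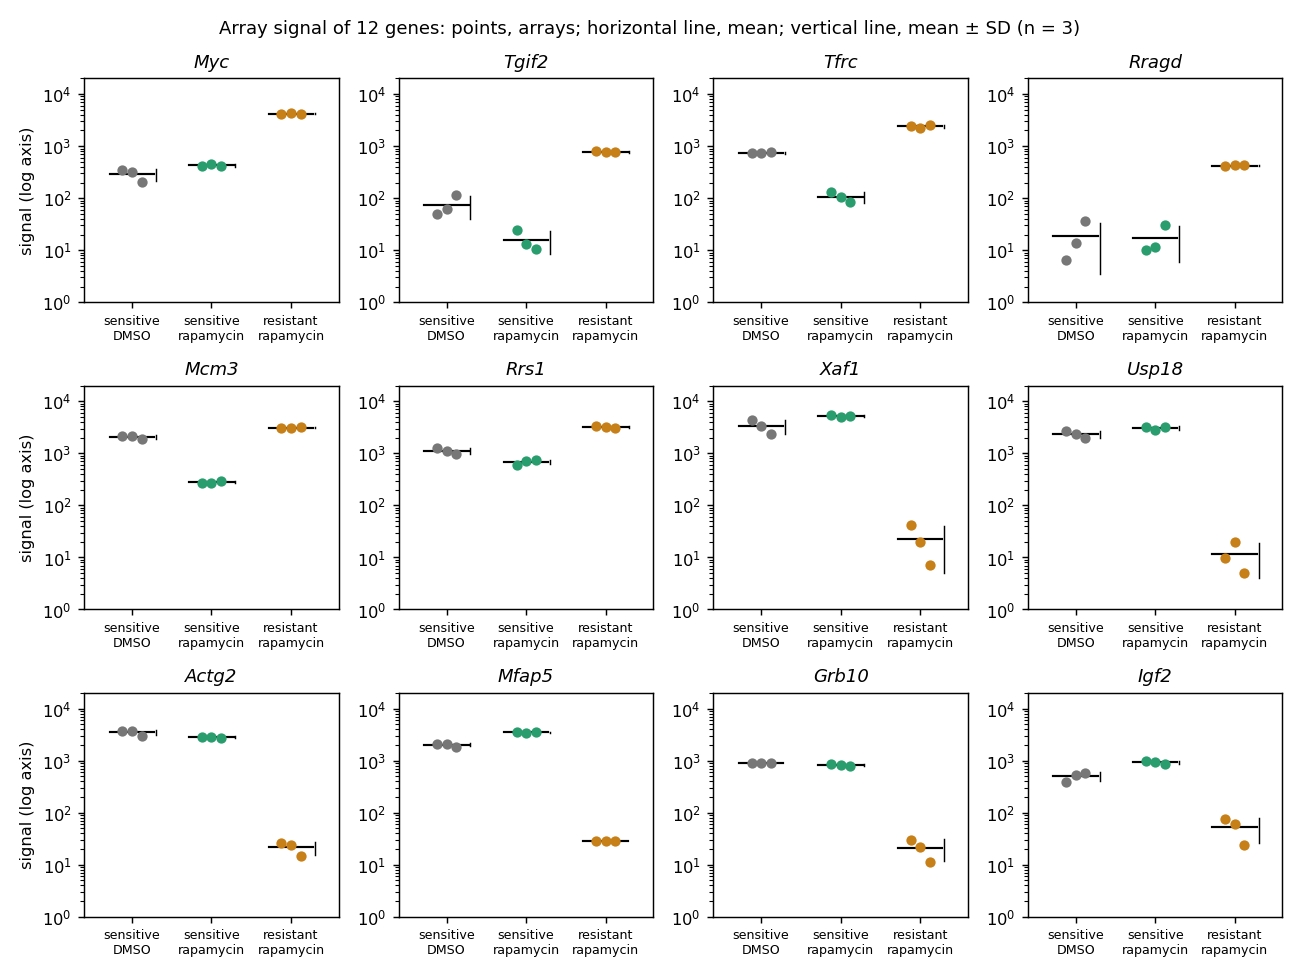
Signal of 12 genes on each of the 9 arrays, on a log axis, by group. Points are arrays, horizontal lines means and vertical lines mean ± SD (n = 3). Myc, Tgif2, Tfrc, Rragd, Mcm3 and Rrs1 lie highest on the resistant arrays, and Xaf1, Usp18, Actg2, Mfap5, Grb10 and Igf2 lie lowest there.

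Ribosome production was higher as a block. Of 72 tested ribosome biogenesis genes 66 rose and 2 fell, with a median of 1.46. Lyar, a nucleolar protein of rRNA processing, read 359, 459 and 444 on the sensitive arrays and 3697, 3748 and 3521 on the resistant arrays (change 3.08 ± 0.09, adjusted p = 1.6e-14). Gnl3, which encodes the nucleolar GTPase nucleostemin, read 847, 762 and 787 on the sensitive arrays and 5572, 5744 and 5825 on the resistant arrays (change 2.82 ± 0.07). Both showed a wide gap between the groups. The large subunit export factor Noc2l rose by 2.94 ± 0.11, the nucleolar chaperone Nolc1 by 2.67 ± 0.10, Rrp1b by 2.59 ± 0.11 and Nop56, a core protein of box C/D particles, by 2.46 ± 0.08. The 2 falls were Las1l, an endonuclease of the second internal spacer of pre-rRNA, with a change of -0.77 ± 0.09, and Nol6 with -0.62 ± 0.20 (adjusted p = 0.0143). The call of Nol6 was lost under quantile normalization (0.0753), without the first sensitive array (0.106) and without the second resistant array (0.0719). On averaging its probe sets Nol6 changed by -0.17 (0.426), and its other probe set was not called at 0.28. In contrast to replication and mitosis genes, which had medians near 0 against DMSO, this list stood above the DMSO level. Its median was -0.56 in sensitive rapamycin cells against DMSO, with 54 lower, and 0.87 in resistant cells against DMSO, with 60 higher.

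The E-box CACGTG, which MYC and MAX bind, lay in 7.15% of all promoters, 11.3% of those of tested genes, 14.0% of genes at least 2-fold higher and 9.42% of genes at least 2-fold lower. In the ribosome biogenesis list 13 of 60 promoters held it (21.7%), with a median change of 1.39 against 1.58 for those without. The 3 windows below are those of the members with a match before the start and the largest changes. Rpf2 loads the 5S particle, Imp4 belongs to the small subunit processome and Nop2 methylates 28S rRNA, and the match is in capitals.
Rpf2 (chr10:40246980-40247059, minus strand): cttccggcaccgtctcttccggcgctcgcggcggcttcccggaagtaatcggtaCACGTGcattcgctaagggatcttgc
Imp4 (chr1:34439671-34439750, plus strand): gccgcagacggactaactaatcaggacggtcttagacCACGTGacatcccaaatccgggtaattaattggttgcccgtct
Nop2 (chr6:125131786-125131865, plus strand): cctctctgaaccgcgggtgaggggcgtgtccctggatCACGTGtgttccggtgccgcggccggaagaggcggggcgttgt
Their changes were 1.84 ± 0.09, 1.46 ± 0.09 and 1.42 ± 0.09, all called higher.

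RNA polymerase I and III subunits and factors rose in 19 of 26 and fell in 1, with a median of 0.73. Polr1b, the second largest subunit of polymerase I, read 138, 141 and 141 on the sensitive arrays and 559, 622 and 552 on the resistant arrays (change 1.93 ± 0.12), with the sensitive arrays close together. The polymerase III genes Polr3g (1.58 ± 0.35), Polr3k (1.43 ± 0.07), Polr3e (1.26 ± 0.13) and Polr3a (1.25 ± 0.12) rose. Maf1, the polymerase III repressor that mTOR complex 1 phosphorylates, changed by -0.19 ± 0.07 (adjusted p = 0.035), a call lost under centring, where it changed by -0.055, and without the second or the third sensitive or the first or the second resistant array (0.106, 0.104, 0.148 and 0.0729).

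Structural ribosomal proteins moved little. Of 30 tested cytosolic ribosomal protein genes of 46 listed, 10 rose (33.3%, background 26.4%), and the median was 0.16. The count was the least stable of all the lists, 18 with quantile normalization, 17 without the third DMSO array, and 6 without a mean-variance trend or without the first or the third sensitive or the second or the third resistant array. Rpl14 (1.77 ± 0.10), Rpl12 (1.66 ± 0.16) and Rpl37 (1.23 ± 0.07) had the largest changes, and ribosomal protein genes have many near-identical copies that a probe set may not tell apart. Mitochondrial ribosomal proteins, by contrast, rose in 42 of 48 and fell in 3, with a median of 0.82, led by Mrpl12 (1.84 ± 0.10) and Mrpl13 (1.71 ± 0.08). The difference between the 2 lists was not tested.

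Among translation factors 22 of 36 genes rose and 3 fell, with a median of 0.32. Eef1e1, a scaffold protein of the multi-synthetase complex, rose by 2.00 ± 0.09, and the eIF2B subunits Eif2b3 and Eif2b1 by 1.39 ± 0.08 and 1.10 ± 0.11. Eif4g3, a scaffold of cap-dependent initiation, read 197, 189 and 204 on the sensitive arrays and 25.9, 13.2 and 33.4 on the resistant arrays, and its change of -2.44 ± 0.24 was the largest in the list. The aminoacyl-tRNA synthetases rose in 16 of 19, with a median of 0.79. The threonyl synthetase gene Tars read 1098, 1243 and 1286 on the sensitive arrays and 8701, 9193 and 8621 on the resistant arrays (change 2.86 ± 0.08, adjusted p = 4.26e-15) and stood well apart from the next, Eprs (1.57 ± 0.09) and Vars (1.57 ± 0.09).

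Amino acid and one-carbon genes, many of them targets of the transcription factor ATF4, rose in 26 of 36 and fell in 4, with a median of 1.09. Mthfd2, of mitochondrial folate metabolism, read 205, 235 and 356 on the sensitive arrays and 2298, 2300.3 and 2418 on the resistant arrays (change 3.10 ± 0.14, adjusted p = 2.15e-12). The serine hydroxymethyltransferases Shmt1 and Shmt2 rose by 2.89 ± 0.15 and 2.31 ± 0.10, Psph, which completes serine synthesis, by 2.67 ± 0.08, the alanine aminotransferase Gpt2 by 2.48 ± 0.10 and Slc7a5, the leucine transporter LAT1, by 2.25 ± 0.08. Against this direction, the transcription factor Atf5 changed by -0.76 ± 0.14 and the stress protein Nupr1 by -1.21 ± 0.09. The list's median was -0.96 in sensitive rapamycin cells against DMSO and 0.14 in resistant cells against DMSO. The composite C/EBP-ATF motif TGATGCAA lay in 0.895% of all promoters, 0.734% of tested genes and 6 of 30 promoters of this list (20.0%), with a median change of 0.83 against 1.37 for those without.

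Iron uptake held the second largest rise among the named genes. Tfrc, the transferrin receptor, read 133, 104 and 83.1 on the sensitive arrays and 2470.2, 2225 and 2535 on the resistant arrays (change 4.32 ± 0.12, adjusted p = 6.37e-15). The DMSO arrays, at 729, 723 and 763, lay between the groups. Cp, the ferroxidase ceruloplasmin, went from 891, 531 and 406 down to 3.83, 25.1 and 33.3 (change -4.12 ± 0.30), and the metal importer gene Slc39a14 changed by -0.91 ± 0.11. Aco1 and Ireb2, the iron regulatory proteins, rose by 0.50 ± 0.08 and 0.34 ± 0.08. Over the 11 genes 3 rose and 3 fell, 27.3% each and near the shares of all genes, and the median was -0.20.

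Energy and lipid lists had smaller medians. In glycolysis and lactate export 12 of 26 rose and 6 fell, with a median of 0.48. The lactate transporters Slc16a1 (2.23 ± 0.08) and Slc16a3 (1.31 ± 0.13), the pyruvate dehydrogenase kinase Pdk1 (2.03 ± 0.10) and lactate dehydrogenase Ldha (1.16 ± 0.09) rose, and the muscle enolase Eno3 fell from 5072, 5178 and 5513 to 2108, 2191 and 2308. Oxidative phosphorylation genes rose in 29 of 49 and fell in 4, with a median of 0.31, and cytochrome c, Cycs, led with 1.14 ± 0.08. Cholesterol genes rose in 13 of 24 and fell in 4, with Idi1 (2.00 ± 0.11) and Sqle (1.48 ± 0.08) up, and Ebp (-1.67 ± 0.09) and Insig2 (-1.40 ± 0.10), a retention factor of the SREBP pathway, down. Fatty acid synthesis genes rose in 9 of 20 and fell in 5, led by the elongase Elovl6 (1.44 ± 0.09) and the synthase Fasn (0.91 ± 0.10).

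Protein folding and turnover genes were mixed. Cytosolic and mitochondrial chaperones rose in 20 of 32 and fell in 5, with a median of 0.67. Ahsa1, which activates HSP90, rose by 1.49 ± 0.07, the mitochondrial HSP90 gene Trap1 by 1.198 ± 0.08 and the chaperonin subunits Cct5 and Cct8 by 1.198 ± 0.09 and 1.19 ± 0.07. Hspa1b, the stress-inducible HSP70, fell from 504, 458 and 502 to 51.9, 78.8 and 70.4 (change -2.61 ± 0.14). Proteasome genes rose in 27 of 35 and fell in 2, with a median of 0.43, led by Psme3 (1.34 ± 0.09). Unfolded protein response genes of the endoplasmic reticulum fell in 15 of 30 and rose in 3, with a median of -0.28. Xbp1, a transcription factor of that response, read 3441, 3062 and 3123 on the sensitive arrays and 584, 624 and 594 on the resistant arrays (change -2.38 ± 0.08), and Crebrf fell by 2.61 (SE 0.14) from 726, 753 and 693 to 113, 110.3 and 92.6.

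The drug's own pathway was measured gene by gene. The subunits of the mTOR complexes moved little or in opposite directions, and 1 nutrient-sensing GTPase stood far from the rest. Of 37 tested genes of 40 listed, 15 rose (40.5%, background 26.4%) and 9 fell (24.3%, background 30.1%), with a median of 0.01. The split was 16 and 5 under centring. Mtor itself read 482, 413 and 379 on the sensitive arrays and 577, 512 and 528 on the resistant arrays (change 0.34 ± 0.13, adjusted p = 0.0331). The call was lost without a mean-variance trend, without the second or the third sensitive array and without the first or the third resistant array (adjusted p of 0.0850, 0.142, 0.118 and 0.0622 for the arrays in that order). Rptor, the defining subunit of complex 1, was not called at -0.0013 ± 0.13, with overlapping arrays, nor was Mlst8, shared by both complexes, at 0.21 ± 0.18. Rictor, the defining subunit of complex 2, rose by 0.83 ± 0.12 from 503, 439 and 373 to 796, 756 and 809, while Mapkap1, another subunit of complex 2, was not called at 0.01 ± 0.10 and Prr5l fell by 1.29 (SE 0.18). Deptor, an inhibitory subunit, rose by 0.68 ± 0.12, and Akt1s1, which encodes the inhibitory PRAS40, by 0.43 ± 0.10, a call lost on averaging its probe sets.

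Rragd, one of the Rag GTPases that bring mTOR complex 1 to the lysosome, read 9.92, 11.4 and 30.3 on the sensitive arrays and 411, 425 and 427 on the resistant arrays (change 3.77 ± 0.33, adjusted p = 2.22e-08). Its resistant arrays lay close together, while the sensitive arrays and the DMSO arrays, at 6.48, 14.0 and 35.8, were near the floor. Its paralogue Rragc was not called, at -0.18 ± 0.07 (adjusted p = 0.0521, called lower under 5 of the alternatives, among them without the first sensitive or the third DMSO array, at 0.0167 and 0.0250), and neither was Rraga, at -0.03 ± 0.09. Subunits of the Ragulator scaffold were lower or not called. Lamtor4, Lamtor5 and Lamtor3 fell, with changes of -0.89 ± 0.10, -0.56 ± 0.07 and -0.46 ± 0.07. The other probe set of Lamtor5, also bright, was not called at -0.08. Lamtor1 changed by -0.21 (a call lost under centring) and Lamtor2 was not called at -0.17 (adjusted p = 0.0113 without the first sensitive array). Lamtor2 was called lower on averaging its probe sets (-0.45, adjusted p = 0.0133) and under quantile normalization (-0.25, 0.00643), and Lamtor1 changed by -0.054 on averaging (0.582). The tuberous sclerosis genes restrain the activator RHEB. Tsc2 fell from 361, 279 and 384 to 206, 225 and 212 (change -0.62 ± 0.15). Tsc1 changed by -0.36 ± 0.14 (adjusted p = 0.0406), but by 0.18 on averaging its probe sets, and its call was lost in 10 of the alternatives, among them without the first or the third sensitive array or any 1 resistant array (0.0811 to 0.1195). The call of Lamtor1 was lost without the second sensitive array or any 1 resistant array (0.0516 to 0.186). Rheb rose by 0.56 ± 0.09 and Rhebl1 by 0.81 ± 0.10.

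Among the amino acid sensors, Sesn3 rose by 1.06 ± 0.15 and Sesn1 by 0.47 ± 0.13. Of the GATOR complexes, which sit between the sensors and the Rag GTPases, Depdc5 (0.78 ± 0.27), Mios (0.45 ± 0.12) and Seh1l (0.41 ± 0.08) were called higher and Wdr24 lower (-0.43 ± 0.14, a call lost under centring). Nprl2, Nprl3, Wdr59 and Sec13 were not called, at -0.01, -0.08, 0.22 and -0.11, and Sec13 was called lower under quantile normalization (-0.19, adjusted p = 0.00477). Seh1l had 3 probe sets higher, 1 lower and 2 not called, and the calls of both were lost on averaging their probe sets. The call of Depdc5 was also lost without the third sensitive array or any 1 resistant array (adjusted p of 0.0509 to 0.0717), and that of Wdr24 under quantile normalization (0.0866) and without the second resistant array (0.0758). The folliculin partner Fnip2 rose by 0.68 ± 0.14 and Fnip1 fell by 0.45 (adjusted p = 0.00759, 0.0504 under centring and 0.0555 without the first sensitive array), with Flcn itself at -0.01. Tti1, which matures PI3K-like kinases including mTOR, rose by 1.001 ± 0.10, and its partner Telo2 was not called at 0.52 ± 0.23 (adjusted p = 0.0621, called under 8 alternatives, among them without the second sensitive or the third DMSO array, at 0.0431 and 0.0188). Tbc1d7, another subunit of the TSC complex, rose by 0.48 ± 0.14, and Slc38a9, the lysosomal arginine sensor, was not called at -0.02.

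Around AKT and insulin signalling, 6 of 20 tested genes of 27 listed rose and 7 fell, shares of 30.0% and 35.0% near those of all genes, with a median of -0.07 that turned to 0.06 under centring and under quantile normalization. Eif4ebp1, the translation repressor that mTOR complex 1 inactivates, read 3719, 3271 and 3669.6 on the sensitive arrays and 6731, 7397 and 7194 on the resistant arrays (change 0.998 ± 0.09, adjusted p = 3.12e-08), and Eif4e, the cap-binding protein it holds, rose by 0.67 ± 0.08. Eif4ebp2 rose by 0.80 ± 0.10, but its other probe sets were not called, at 0.26, 0.12 and 0.19. The largest changes were falls. Grb10, an adaptor that dampens insulin receptor signalling and is a substrate of mTOR complex 1, read 857, 809 and 792 on the sensitive arrays and 30.3, 22.3 and 11.3 on the resistant arrays (change -4.52 ± 0.15, adjusted p = 8.15e-14), with the resistant arrays near the floor. Sgk1, a kinase activated by complex 2, read 2887, 2847 and 2929 on the sensitive arrays and 642, 758 and 676 on the resistant arrays (change -2.04 ± 0.09). Irs1, the insulin receptor substrate, read 934, 1012 and 992 on the sensitive arrays and 277, 336 and 242 on the resistant arrays (change -1.74 ± 0.13).

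The kinase Pdpk1 fell (-0.95 ± 0.09), as did the PI3K regulatory subunits Pik3r1 (-0.70 ± 0.16) and Pik3r2 (-0.48 ± 0.09). The catalytic subunit Pik3ca changed by -0.23 (adjusted p = 0.0308, lost under centring and without the third sensitive array or any 1 resistant array, at 0.0531 to 0.115). In the limma fit over all probe sets, other Pik3ca probe sets were called lower, at -0.84 (adjusted p = 1.98e-06) and -0.82 (0.0041). Its remaining probe sets were not called, at -0.22 and -0.30. Pik3cb was not called at -0.05. Akt1 and Akt2 were called higher at 0.46 ± 0.09 and 0.57 ± 0.13, but at 0.13 and 0.09 on averaging their probe sets, where the calls were lost. The phosphatase Phlpp1 rose by 0.57 ± 0.13. Igf1r, Insr, Inpp5d, Sgk3, Rps6ka3 and Rps6kb2 were not called, at 0.15, -0.16, 0.54, -0.09, -0.17 and 0.01. Igf1r was called higher under centring and without the first sensitive array (0.29 for both), and Rps6ka3 lower without the third (-0.23). On averaging their probe sets, Rps6ka3 (-0.46, adjusted p = 0.00225) and Sgk3 (-0.57, adjusted p = 0.00165) were called lower, and 2 of the 3 probe sets of Sgk3 were lower. Rps6kb1, which encodes the S6 kinase most studied as a target of mTOR, was not analysed here.

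The FK506-binding proteins, the family that holds the drug's receptor, moved both ways. Of 12 tested genes of 15 listed 6 were called higher, Fkbp1a among them, and 5 lower, with a median of 0.34. Fkbp1a, which encodes FKBP12, read 5647, 5976 and 6034 on the sensitive arrays and 7187, 7612 and 7791 on the resistant arrays (change 0.35 ± 0.08, adjusted p = 0.000764). Its probe sets disagreed, 3 called higher, 1 lower and 1 not called, and their average changed by -0.044, so no direction is given for it. Fkbp4, the HSP90 co-chaperone FKBP52, read 409.9, 464 and 496 on the sensitive arrays and 2489, 2299.7 and 2435 on the resistant arrays (change 2.36 ± 0.11, adjusted p = 5.47e-12), the largest rise of the family. Fkbp5, its relative FKBP51, rose by 1.24 ± 0.11, nuclear Fkbp3 by 1.21 ± 0.07 and the secretory pathway gene Fkbp11 by 1.35 ± 0.09, and Fkbp2 by 0.32 ± 0.08. Fkbp14 fell from 1093, 941 and 986 to 177, 183 and 224 (change -2.28 ± 0.11) and Fkbp7 changed by -1.93 ± 0.09, and both encode proteins of the endoplasmic reticulum. Fkbpl fell (-1.35 ± 0.17), as did Fkbp15 (-0.53 ± 0.14), Fkbp9 changed by -0.26 (a call lost under centring and without the first or the second sensitive or the first or the third resistant array, at 0.0537 to 0.123) and Fkbp8 was not called at 0.40, though at 0.77 without the third sensitive array it was (adjusted p = 0.0011).

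The interferon list had the lowest median of the 44. Cells without an infection can hold a standing level of interferon-stimulated genes through basal interferon signalling, and most of the list had lower signals in the resistant line. Of 59 tested genes of 64 listed, 54 fell (background 30.1%), with a median of -3.52, and the arrays did not overlap for 55 lower (background 35.3%) and 1 higher. One gene was called higher under centring and quantile normalization. Xaf1, an interferon-induced apoptosis factor, read 5348, 4933 and 5263 on the sensitive arrays and 42.0, 19.4 and 7.11 on the resistant arrays (change -7.16 ± 0.24, adjusted p = 6.04e-14). Usp18, the protease that removes ISG15 and limits interferon signalling, read 3231, 2792 and 3246 on the sensitive arrays and 9.66, 19.7 and 5.06 on the resistant arrays (change -6.85 ± 0.15). Rtp4, an interferon-induced chaperone, read 5814, 5962 and 5802 on the sensitive arrays and 62.3, 61.9 and 51.1 on the resistant arrays (change -6.31 ± 0.08). In all 3 the groups were far apart, and the resistant signals of Rtp4 stayed above those of Xaf1 and Usp18.

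The RNA-sensing oligoadenylate synthetase family fell, with changes of -6.44 ± 0.27 for Oas1a and -6.26 ± 0.21 for the related Oasl2. The restriction factor Trim30a changed by -6.74 ± 0.13, Ifi27l2a by -7.05 ± 0.15, the antiviral Ifit3 by -6.09 ± 0.14, the DNA-binding Mndal by -5.94 ± 0.13, and the interferon-inducible GTPases Iigp1 and Irgm2 by -5.68 ± 0.15 and -5.64 ± 0.17. The list's median was 0.40 in sensitive rapamycin cells against DMSO, where 33 rose (background 20.4%) and 1 fell, and -3.08 in resistant cells against DMSO, where 55 fell. Oas, Ifit and GTPase families have closely similar members that probe sets may share.

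The interferon-stimulated response element, GAAA, any 2 bases and GAAA again on either strand, lay in 3.44% of all promoters and 3.54% of those of tested genes, in 3.00% of genes at least 2-fold higher and in 7.44% of genes at least 2-fold lower. In the interferon list 21 of 43 promoters held it (48.8%), with a median change of -4.33 against -2.75 for those without. Over all tested genes with the motif, 149 of 362 were lower (41.2%) and 82 higher (22.7%). The windows of the 3 members with a match before the start and the largest falls are shown because this group carries the largest differences, with every match in capitals.
Trim30a (chr7:104465194-104465273, minus strand): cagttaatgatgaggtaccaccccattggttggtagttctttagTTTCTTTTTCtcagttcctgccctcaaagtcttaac
Oas1a (chr5:120907526-120907605, minus strand): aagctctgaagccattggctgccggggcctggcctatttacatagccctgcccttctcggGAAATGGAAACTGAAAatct
Ifit3 (chr19:34583372-34583451, plus strand): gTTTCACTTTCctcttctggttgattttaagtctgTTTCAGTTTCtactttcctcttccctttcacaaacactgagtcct
The nearest match began 36 bases before the start in Trim30a, 14 in Oas1a and 122 in Ifit3, and Oas1a and Ifit3 held 2 matches each.

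Antigen presentation by class I molecules fell with the interferon list, 14 of 17 tested with a median of -1.82. The heavy chain gene H2-D1 read 5549, 4515 and 4957 on the sensitive arrays and 554, 542 and 590.0 on the resistant arrays (change -3.12 ± 0.09), with wide separation. H2-K1 changed by -2.31 ± 0.14, the peptide transporter genes Tap1 and Tap2 by -2.64 ± 0.27 and -4.09 ± 0.19, the peptide loading gene Tapbp by -2.88 ± 0.08 and the immunoproteasome subunit Psmb8 by -2.50 ± 0.32. The class I genes are near-identical copies that probe sets may share. Receptors and sensors were lower in 17 of 25 and higher in 2, with a median of -0.85. The oncostatin M receptor Osmr changed by -2.31 ± 0.08, the adaptor Sting1 by -2.27 ± 0.18, the double-stranded RNA receptor Tlr3 by -2.22 ± 0.19 and the interferon-gamma receptor Ifngr1 by -1.79 ± 0.11. Cgas, the DNA sensor upstream of STING, went the other way and rose from 129, 181 and 138 to 478, 495 and 412 (change 1.54 ± 0.13).

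Chemokines, inflammatory and complement genes fell in 18 of 27 tested genes of 41 listed, and 1 was called higher, with a median of -1.06. Complement C1s1 read 1153, 961 and 938 on the sensitive arrays and 81.3, 74.9 and 77.5 on the resistant arrays (change -3.45 ± 0.14). The chemokines Ccl5 and Ccl7 changed by -2.87 ± 0.25 and -2.37 ± 0.14, the macrophage growth factor Csf1 by -2.87 ± 0.09, the adhesion molecule Vcam1 by -2.71 ± 0.10 and the prostaglandin synthase Ptgs2 by -2.601 ± 0.13. Cxcl1, the gene called higher (0.39 ± 0.15), had 1 probe set higher, 1 lower and 1 not called, an average change of -0.042, and no call without the first or the second sensitive or the first or the third resistant array (adjusted p of 0.0534 to 0.112). The 8 macrophage and blood markers summed to 849 to 906 on the sensitive and 386 to 473 on the resistant arrays. Cd14 was the largest part of the sensitive sum, with means of 425 in sensitive and 145 in resistant cells. Of 6 tested, Cd14, Lyz2 and Aif1 were lower, and Cd68, Csf1r and Adgre1 were not called, at -0.17, 0.38 and -0.40. The part of these markers in the results was not tested. Ptprc, which encodes the pan-leukocyte CD45, was below 22.2 on all 6 arrays. In a bulk sample, fewer cells of a type and less RNA per cell cannot be told apart.

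**Figure D4:**
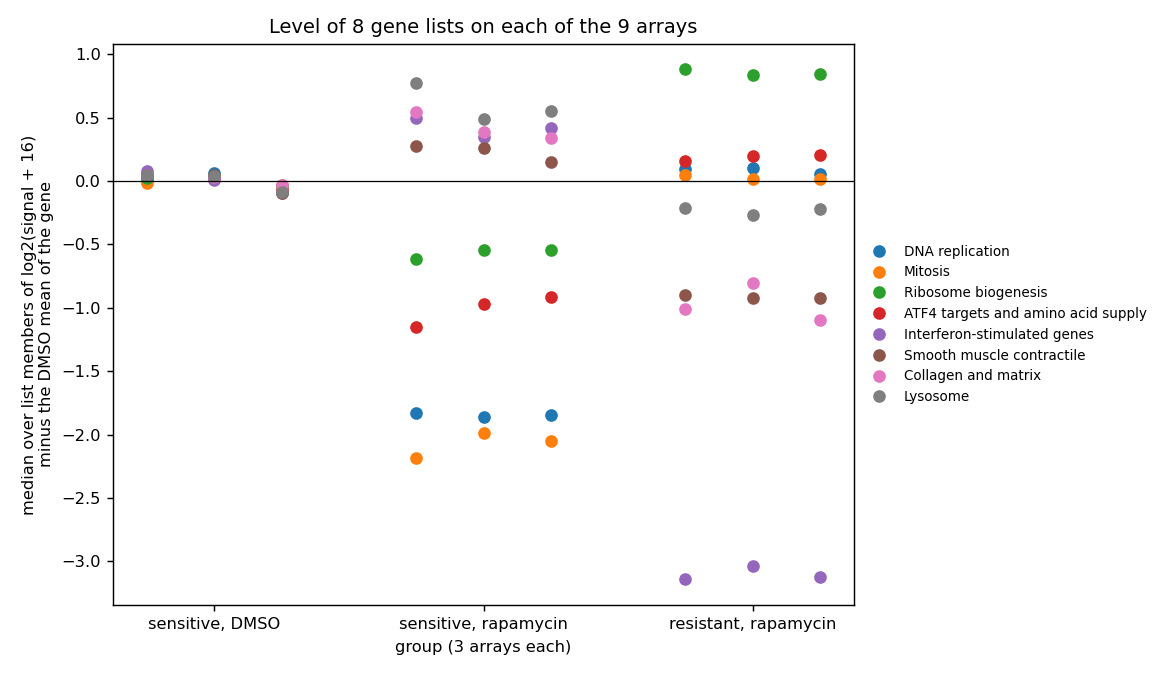
Median over the members of 8 gene lists of log2(signal + 16) minus the gene's DMSO mean, on each of the 9 arrays by group. Replication and mitosis lie near -2 in sensitive cells in rapamycin and near 0 in the resistant line, ribosome biogenesis lies above 0 in the resistant line, and interferon-stimulated genes lie at about 0.4 and about -3.

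Smooth muscle contractile genes, which BC3H1 is known to express, were lower in the resistant line. Of 30 tested, 25 fell and 1 was called higher, with a median of -1.14. Actg2, the enteric smooth muscle actin, read 2874, 2897 and 2731 on the sensitive arrays and 26.0, 24.0 and 14.9 on the resistant arrays (change -6.26 ± 0.11, adjusted p = 1.11e-16). Its resistant arrays were near the floor. Cnn1, a calponin, read 798, 747 and 759 on the sensitive arrays and 16.7, 10.8 and 14.99 on the resistant arrays (change -4.70 ± 0.13). Tagln, which encodes SM22, read 6999, 7133 and 7564 on the sensitive arrays and 1379.9, 1254 and 1195 on the resistant arrays (change -2.49 ± 0.10). The myosin light chain Myl9 changed by -3.14 ± 0.09, the calponin Cnn2 by -2.25 ± 0.11 and filamin A, Flna, by -2.04 ± 0.08. Pdlim7, the gene called higher (0.37 ± 0.09), had probe sets of both directions and a mean change of -0.12. The 5 smooth muscle markers summed to 26981 to 27488 on the sensitive and 7174 to 8834 on the resistant arrays, and Acta2 was the largest part. All 4 that were tested fell, which repeats the list result in part, since Actg2, Cnn1 and Tagln are among them. Acta2, the vascular smooth muscle actin and the brightest of these markers, changed by -1.33 (adjusted p = 2.76e-08) but remained bright in both groups. It read 16542, 16686 and 15922 on the sensitive arrays and 7410.2, 6219 and 5943 on the resistant arrays. The mature smooth muscle myosin Myh11 was below the filter.

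CArG boxes, the sites that serum response factor binds, were searched by name in the form of a CC, 6 bases of A or T and a GG. They lay in 1.63% of all promoters, 1.60% of those of tested genes, 1.64% of genes at least 2-fold higher and 2.58% of genes at least 2-fold lower. Of 27 promoters in the smooth muscle list 5 held one (18.5%), with a median change of -1.27 against -1.08 for those without. The windows of Myl9, Cnn2 and Filip1l, a filamin-interacting protein, have the largest falls among members with a match before the start, which is in capitals.
Myl9 (chr2:156775268-156775347, plus strand): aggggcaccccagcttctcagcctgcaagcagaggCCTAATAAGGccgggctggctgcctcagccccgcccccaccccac
Cnn2 (chr10:79988509-79988588, plus strand): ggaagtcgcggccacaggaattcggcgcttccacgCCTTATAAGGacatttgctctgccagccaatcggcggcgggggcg
Filip1l (chr16:57549145-57549224, plus strand): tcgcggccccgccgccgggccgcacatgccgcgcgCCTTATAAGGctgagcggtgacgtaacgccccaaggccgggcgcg
Filip1l changed by -1.27 ± 0.08.

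Of 27 tested skeletal muscle genes of 44 listed, 8 rose (29.6%) and 9 fell (33.3%), with a median of -0.17. These shares are near those of all genes, 26.4% and 30.1%. Genes of the fast and slow troponin complexes rose from near the floor. Tnnc2 read 4.10, 1.34 and 2.37 on the sensitive arrays and 213, 208 and 220.0 on the resistant arrays (change 3.63 ± 0.36) and Tnnt1 read 38.4, 6.53 and 40.9 on the sensitive arrays and 343, 446 and 420.0 on the resistant arrays (change 3.34 ± 0.40). The troponin Tnnt3 rose by 2.00 ± 0.52, the muscle caveolin Cav3 by 2.32 ± 0.41, and Trim54, a ring finger protein of the sarcomere, by 3.38 ± 0.37. These genes were dim in both sensitive groups, and 16 listed genes were below the filter. The filter took the mean over all 9 arrays, so genes dim in sensitive cells could pass through bright resistant arrays alone. Cav3, for one, had means of 12.2 in DMSO, 10.7 in sensitive and 114 in resistant cells. The rise of such genes is thus tied to how they entered, and the count of 8 includes them. Chrna1, the alpha subunit of the muscle acetylcholine receptor, moved the other way and read 483, 417 and 502 on the sensitive arrays and 12.4, 3.12 and 30.0 on the resistant arrays (change -4.04 ± 0.23). The atrophy ubiquitin ligase Fbxo32 fell from 394, 394 and 332 to 70.5, 90.1 and 96.0 (change -1.94 ± 0.17). Of the 8 skeletal muscle markers 4 were called higher and 3 lower, with sums of 1684 to 1999 on the sensitive and 1475 to 1509 on the resistant arrays.

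The extracellular matrix was lower across the list. Of 49 tested collagen and matrix genes 40 fell and 1 rose, with a median of -1.57. Mfap5, a microfibril protein, read 3610.1, 3464 and 3483 on the sensitive arrays and 28.7, 28.3 and 28.5 on the resistant arrays (change -6.31 ± 0.08, adjusted p = 4.81e-19). Thbs1, which encodes thrombospondin, read 3479.7, 2706 and 2911 on the sensitive arrays and 137, 128 and 116 on the resistant arrays (change -4.41 ± 0.10). Ccn2, connective tissue growth factor, read 6163, 4898 and 4805 on the sensitive arrays and 273, 236 and 231 on the resistant arrays (change -4.33 ± 0.11). In all 3 the groups were far apart. Col8a1 changed by -4.03 ± 0.09, Col11a1 by -3.79 ± 0.22 and decorin, Dcn, by -3.33 ± 0.19. Fmod, the collagen-binding fibromodulin, was the gene that rose, from 32.5, 9.52 and 18.6 to 298, 299.5 and 253 (change 3.09 ± 0.35, 6 of 6 probe sets higher). The list's median was 0.43 in sensitive rapamycin cells against DMSO and -1.0035 in resistant cells against DMSO. Pericyte and fibroblast markers, 8 genes that include Col1a1 and Dcn, summed to 14775 to 17971 on the sensitive and 3457 to 4851 on the resistant arrays. Most of that sum was Col1a1, with means of 14124 and 3844. The 4 lower of 7 tested were Col1a1, Dcn, Pdgfra and Pdgfrb. Cspg4, Rgs5 and Thy1 were not called, at 0.15, -0.14 and 0.14. The part of these markers in the matrix result was not tested.

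Matrix proteases and inhibitors fell in 19 of 23 tested and rose in 2, with a median of -1.49. Timp1, an inhibitor of metalloproteinases, read 8757, 7918 and 7749.8 on the sensitive arrays and 916, 849 and 817 on the resistant arrays (change -3.22 ± 0.09). The plasminogen activator Plat changed by -2.90 ± 0.09, its inhibitor Serpinb2 by -3.55 ± 0.16 and the membrane metalloproteinase Mmp14 by -2.10 ± 0.08. Serpinf1, the anti-angiogenic factor PEDF, rose against this direction from 445, 391 and 446 to 3034, 3154 and 2986 (change 2.80 ± 0.11, adjusted p = 3.34e-13). Adhesion receptors fell in 19 of 27, with a median of -1.13. The cadherins Cdh10 (-2.55 ± 0.19) and Cdh13 (-2.22 ± 0.15), the protocadherin Pcdh7 (-2.53 ± 0.11), the integrin subunits Itgb5 (-2.24 ± 0.08) and Itga7 (-2.16 ± 0.09) and the glypican Gpc4 (-2.24 ± 0.11) were the largest.

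TGF-beta and BMP genes fell in 19 of 32 and rose in 4, with a median of -0.62. Inhbb, an activin subunit, read 1112, 1059.9 and 1090.4 on the sensitive arrays and 12.9, 26.2 and 14.9 on the resistant arrays (change -5.04 ± 0.14). The related subunit Inhba changed by -2.56 ± 0.15, the latent TGF-beta binding protein Ltbp1 by -2.95 ± 0.15, the protease Bmp1 by -2.84 ± 0.09 and the receptor Tgfbr2 by -1.73 ± 0.08. Follistatin, Fst, which binds activins, rose by 1.79 ± 0.36 from dim signals. Tgif2, a homeobox repressor of SMAD-dependent transcription, had the largest rise of all genes. It read 24.5, 13.1 and 10.5 on the sensitive arrays and 822, 777 and 758 on the resistant arrays (change 4.67 ± 0.25, adjusted p = 3.04e-11), and 49.4, 60.8 and 116 on the DMSO arrays. Wnt and YAP genes fell in 16 of 33 and rose in 2, with a median of -0.42. The receptors Fzd1 and Fzd8 changed by -2.74 ± 0.20 and -2.51 ± 0.33, the YAP target Ankrd1 by -1.90 ± 0.07 and the kinase Lats2 by -1.88 ± 0.13, and the transcription factor Tead2 rose by 1.34 ± 0.10.

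Growth factor receptors and ligands fell in 25 of 41 and rose in 2, with a median of -0.61. Igf2, the fetal insulin-like growth factor, read 991, 930.1 and 878 on the sensitive arrays and 74.7, 61.5 and 23.5 on the resistant arrays (change -3.86 ± 0.23, adjusted p = 8.9e-11). Gas6, the ligand of the AXL receptor, read 909.7, 869.7 and 864 on the sensitive arrays and 103, 142 and 141 on the resistant arrays (change -2.64 ± 0.13). Both platelet-derived growth factor receptors fell, Pdgfrb (-2.55 ± 0.10) and Pdgfra (-2.56 ± 0.32), as did the neurotrophin Bdnf (-2.45 ± 0.12) and Igfbp7 (-2.24 ± 0.09). Fgfr2 rose by 1.04 ± 0.16. Feedback and immediate early genes of the MAPK pathway fell in 21 of 38 and rose in 5, with a median of -0.66. Dusp1, a MAPK phosphatase, read 2666, 2848 and 2679.6 on the sensitive arrays and 377, 323 and 354 on the resistant arrays (change -2.91 ± 0.11). The ERK phosphatase Dusp6 changed by -1.97 ± 0.16, and the transcription factors Etv4 and Egr1 by -2.58 ± 0.21 and -1.86 ± 0.16. Nr4a1 and Atf3 rose by 1.46 ± 0.26 and 1.04 ± 0.30 from dim signals.

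Lysosome and autophagy genes, which mTOR complex 1 restrains through TFEB and ULK1, were lower in the resistant line. Of 53 tested lysosome genes 38 fell and 4 rose, with a median of -0.73, and their median was 0.58 in sensitive rapamycin cells against DMSO and -0.25 in resistant cells against DMSO. Ctsb, the protease cathepsin B, read 6598, 5713 and 6215 on the sensitive arrays and 1639, 1638 and 1584 on the resistant arrays (change -1.92 ± 0.09). Cathepsin O, Ctso, changed by -3.16 ± 0.12, the iduronate sulfatase Ids by -2.59 ± 0.08 and progranulin, Grn, by -1.72 ± 0.08. Atp6v1c1, a proton pump subunit, rose by 1.09 ± 0.08 and the protease Lgmn by 0.68 ± 0.09. Autophagy genes fell in 21 of 36 and rose in 4, with a median of -0.57. Ulk2, a kinase that starts autophagy, read 716, 774 and 778 on the sensitive arrays and 165, 172 and 191 on the resistant arrays (change -2.01 ± 0.12). Wipi1 changed by -1.96 ± 0.10, Gabarap by -1.64 ± 0.08, Rb1cc1, the scaffold FIP200, by -1.55 ± 0.12 and Atg12 by -1.54 ± 0.18, and Atg2b rose by 0.91 ± 0.22.

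Death and stress genes were mixed. In the list of p53 targets, caspases and BCL2 genes 18 of 34 fell and 5 rose, with a median of -0.49. The inflammatory caspase Casp4 read 437, 499.6 and 474 on the sensitive arrays and 4.43, 1.58 and 3.41 on the resistant arrays (change -4.67 ± 0.22) and Casp12 read 1704, 1814 and 1823 on the sensitive arrays and 182, 178 and 215 on the resistant arrays (change -3.12 ± 0.09). Of p53 targets, Ccng1 (-1.99 ± 0.10) and Trp53inp1 (-2.83 ± 0.31) fell, but Cdkn1a, which encodes p21, rose by 0.87 ± 0.16. Redox genes split into 11 higher (40.7%) and 10 lower (37.0%) of 27, against 26.4% and 30.1% of all genes. They ranged from Gsta4 (1.84 ± 0.10) to the extracellular superoxide dismutase Sod3 (-3.35 ± 0.24). ABC transporters split into 9 higher (40.9%) and 6 lower (27.3%) of 22. Abcb1a, one of the genes for the multidrug pump P-glycoprotein, was dim in both groups and fell from 52.3, 60.9 and 50.1 to 3.08, 14.5 and 9.01 (change -1.52 ± 0.33).

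Chromatin and imprinted genes included large changes in both directions. Of 18 tested, 7 were higher (38.9%) and 6 lower (33.3%), against 26.4% and 30.1% of all genes. Hells, a remodeller that works with DNA methylation, rose by 3.15 ± 0.10 and the histone methyltransferase Ezh2 by 2.12 ± 0.08. The imprinted gene Sgce, which encodes epsilon-sarcoglycan, had the largest fall of the list and read 1013, 837 and 976 on the sensitive arrays and 20.7, 17.1 and 5.74 on the resistant arrays (change -5.00 ± 0.19). In the list of neuronal and intermediate filament genes 4 of 13 tested genes rose (30.8%) and 5 fell (38.5%). Prph, which encodes the intermediate filament peripherin, read 8.06, 18.3 and 10.2 on the sensitive arrays and 471, 365 and 348 on the resistant arrays (change 3.87 ± 0.32) and was near the floor on the DMSO arrays too. The B-type lamins Lmnb1 and Lmnb2 rose by 1.02 ± 0.13 and 2.23 ± 0.20 while Lmna fell by 1.01 (SE 0.07), and nestin, Nes, fell by 1.93 (SE 0.19).

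Some of the largest changes lay outside the lists. Fbxo2, a ubiquitin ligase receptor for glycoproteins, read 53.3, 59.8 and 43.6 on the sensitive arrays and 1129, 1083 and 1129.7 on the resistant arrays (change 4.06 ± 0.24). Ifrd2 rose by 4.005 ± 0.18, the cell division gene Cdca7 by 3.88 ± 0.18, the ion transport regulator Fxyd1 by 3.42 ± 0.30 and the actin-linked Ivns1abp by 3.35 ± 0.10. Spinkl read 1242, 1256 and 1049.8 on the sensitive arrays and 0.50, 1.91 and 7.20 on the resistant arrays (change -5.97 ± 0.14), and Rnase4, a secreted ribonuclease, changed by -5.41 ± 0.23.

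The direction of change was uneven across the genome. Runs of at least 8 neighbouring tested genes, all called in 1 direction, numbered 8 among 12647 genes placed in order, and all 8 were lower. The longest, from Irak1 to Ikbkg, held 12 genes with a median of -1.16, among them Flna. A run of 10 from Serpinb1a to Tubb2a held 6 serpin genes of the b family and had a median of -1.65. Another run of 10, from Maged1 to Heph with a median of -1.10, held Las1l, named above as a fall in ribosome biogenesis. Of the 8 runs 3 lay on the X chromosome and 5 elsewhere. The runs and the chromosome shares that follow rest on the same calls and are not separate results. By chromosome, 226 of 396 tested X-linked genes fell (57.1%) and 35 rose (8.84%), with a median of -0.60, and 181 of 323 genes of chromosome 18 fell (56.0%) and 33 rose (10.2%), with a median of -0.54. On the other 18 chromosomes between 19.9% and 38.1% of genes were lower, and medians lay between -0.24 and 0.10. Singling out these chromosomes followed a look at their values. The list counts and named changes above were not adjusted for chromosome. A listed gene on X or chromosome 18 may share the shift of its chromosome, which was not tested.

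**Figure D5:**
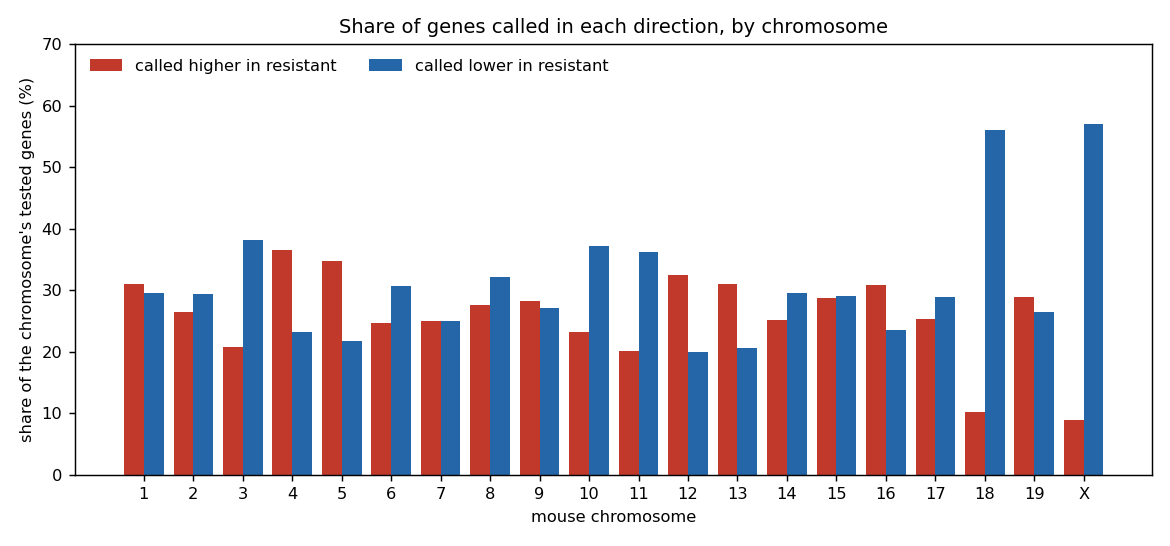
Share of each chromosome's tested genes called higher (red) and lower (blue) in the resistant line, in percent. Chromosomes 18 and X have 56.0% and 57.1% of genes lower, against 19.9% to 38.1% on the 18 others.

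The shift held under both scalings, with medians of -0.47 and -0.57 for X and -0.41 and -0.46 for chromosome 18 under centring and quantile normalization. It was present against the DMSO cells as well, at -0.61 for X and -0.55 for chromosome 18, while sensitive rapamycin cells against DMSO had medians of 0.05 and 0.03. These comparisons share arrays with the one described here. Xist, the RNA that coats an inactive X chromosome, read 1846, 1501 and 1354 on the sensitive arrays and 23.9, 33.3 and 36.0 on the resistant arrays (change -5.07 ± 0.14, adjusted p = 7.47e-15), and 1115, 1209.6 and 878 on the DMSO arrays. The X-linked Magea6 and Magee1 changed by -5.00 ± 0.17 and -4.50 ± 0.14. These 3 genes were named after their values were seen.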

How the data were processed

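RNA on 9 arrays in 3 groups was measured with the Affymetrix Mouse 430 2.0 design. The values are the authors' deposited intensities, linear signals per probe set made with GCOS 1.4, per the submitters' processing notes, and the mean of each array after trimming 2% at either end was 250.0. The algorithm is not given in the sources used here. Of 45101 probe sets, 64 were controls, 34945 had 1 gene symbol in the platform annotation, 932 several and 9160 none. Probe sets whose mean on the log2(signal + 16) scale was above the 40th percentile, a signal of 22.2, were kept. That mean was taken over all 9 arrays, so a gene near the floor in 1 group could enter through the others. Each of the 18193 genes was taken at its brightest probe set, which left 12715 genes. Values were log2(signal + 16). limma 3.58.1 under R 4.3.3 fitted 3 group means to the 9 arrays, with a mean-variance trend in its eBayes step, and p-values were Benjamini-Hochberg adjusted over all tested genes. The scripts were tested on simulated data.

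The members and the gene lists were chosen with earlier results of these data known. Named genes are the called genes with the 15 greatest rises and the 15 greatest falls, where arrays do not overlap and the brighter group reaches the median tested signal, without names of predicted genes, ESTs or clones, then in each list up to 6 called members by size, up to 2 called members against the list's direction, and all members of the mTOR, PI3K-AKT, FK506-binding protein and Myc lists. Genes shown for a promoter window were chosen by their match and change, leaving out promoters on chromosome 18. Cell type markers were chosen by a fixed list. Alternatives were centring on the 75th percentile, quantile normalization, a pseudocount of 64, no filter or one at the 60th percentile, averaging each gene's probe sets, no trend, only the 6 rapamycin arrays, the replicate number as a block, and leaving out each array.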

Additional observations from a re-analysis of the deposited data

How the results depend on the processing

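Over the 18 alternatives the count of called genes lay between 6645 and 7701, of genes called higher between 3032 and 3895 and of genes called lower between 3240 and 4126, against 7186, 3353 and 3833. Of the list counts in the list's more frequent direction, that of cytosolic ribosomal proteins moved by more than 1.5 times, from 10 to 18 under quantile normalization, to 6 without a mean-variance trend, and to between 6 and 17 on leaving out 1 array. When the probe sets of each gene were averaged the direction turned for Cxcl1 (-0.042), Fkbp1a (-0.044), Pdlim7 (-0.12), Tsc1 (0.18) and Zbtb17 (-0.048). These 5 and 13 others of the 369 named genes lost their call there, and 4 gained one. Centring on the 75th percentile ended 12 calls, and a fit without a trend 9, those of Fkbp9, Fnip1, Lamtor1, Maf1, Mtor, Ndufa8, Pik3ca, Tcf7l1 and Zbtb17. The replicate numbers did not pair the arrays: the deviations of same-numbered sensitive and resistant rapamycin arrays correlated at 0.0090, -0.0061 and 0.015. With the replicate block 7100.0 genes were called, cytosolic ribosomal proteins numbered 9, Telo2 gained the call (adjusted p = 0.0426), Tsc1 lost it (0.0575), and no other named gene changed its call. Signals near the floor limit the size of the largest changes, and 3 arrays a group and 1 resistant line limit what the p-values cover.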
